A study of Mus musculus with 6 samples.

Results

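Mural cells, the pericytes and vascular smooth muscle cells that wrap blood vessels, are known by a small set of genes, and 10 of these were read in coronary endothelial cells (ECs) sorted from hearts of mouse embryos with *Wt1* intact or with *Wt1* deleted by an endothelial Cre. The genes were taken by symbol from the 55416 genes of the count table, and all 10 (*Rgs5*, *Higd1b*, *Cspg4*, *Aoc3*, *Abcc9*, *Kcnj8*, *Acta2*, *Des*, *Tagln* and *Myh11*) were listed in it. RNA-Seq libraries were made from mGFP+ cells isolated by FACS from E15.5 heart ventricles, with 3 biological replicates of each genotype. ControlΔEC embryos were *Pdgfb-CreERT2/+; Wt1 +/+; R26 mTmG/+* and Wt1KOΔEC embryos were *Pdgfb-CreERT2/+; Wt1 LoxP/LoxP; R26 mTmG/+*. Both genotypes therefore carried the Cre and the reporter, and both received tamoxifen at 75 mg/kg, given to the pregnant females by gavage from E11.5 to E13.5. The model is bounded by its driver: the *Pdgfb* promoter controls the Cre, and the sort kept cells in which that Cre had recombined the reporter. Replicate libraries are called by genotype and number, and whether a library pooled several embryos is not given in the sources used here.

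Pericytes sit singly along capillaries inside the vessel's basement membrane, whereas smooth muscle cells form contractile layers around arteries and larger veins. In the heart both arise largely from the epicardium and are drawn to the coronary plexus by signals from ECs, of which PDGF-B acting on PDGFRβ is the best known. Pericytes are marked by genes such as *Rgs5*, *Higd1b*, *Cspg4*, *Abcc9* and *Kcnj8*, and smooth muscle cells by genes of the contractile apparatus such as *Acta2*, *Tagln* and *Myh11*, although no one of these genes belongs to a single cell type. In bulk RNA a lower level can mean fewer cells of a type or less RNA in each cell, and these cannot be told apart. Nor does bulk RNA tell reads of ECs from reads of mural cells that entered the sort.

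Promoter sequences from RefSeq (250 bases before to 50 bases after the gene start, build GRCm38.p6) were matched for 6 of the 10 genes, *Rgs5*, *Cspg4*, *Abcc9*, *Kcnj8*, *Acta2* and *Des*. *Aoc3*, *Higd1b*, *Tagln* and *Myh11* had no entry. Of *Rgs5*, *Cspg4*, *Kcnj8* and *Acta2*, none passed the main edgeR test described below, and only *Acta2* overlapped between genotypes. Printed are the promoters of *Rgs5* and *Cspg4* (log2 fold change, Wt1KOΔEC over ControlΔEC, -2.50 and -1.22) and of *Kcnj8* and *Acta2* (-0.35 and -0.04). They lie at chr1:169655251-169655550 on the plus strand for *Rgs5*, chr9:56864854-56865153 on the plus strand for *Cspg4*, chr6:142571565-142571864 on the minus strand for *Kcnj8* and chr19:34255324-34255623 on the minus strand for *Acta2*. Each reads 5′ to 3′ in the direction of the gene, and capitals mark matches to the motifs described after them.
Rgs5: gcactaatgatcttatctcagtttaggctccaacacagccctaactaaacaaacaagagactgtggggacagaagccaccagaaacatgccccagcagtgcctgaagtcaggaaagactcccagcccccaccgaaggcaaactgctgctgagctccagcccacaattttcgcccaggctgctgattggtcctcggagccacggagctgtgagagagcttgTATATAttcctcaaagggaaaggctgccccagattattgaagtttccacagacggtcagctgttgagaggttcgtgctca
Cspg4: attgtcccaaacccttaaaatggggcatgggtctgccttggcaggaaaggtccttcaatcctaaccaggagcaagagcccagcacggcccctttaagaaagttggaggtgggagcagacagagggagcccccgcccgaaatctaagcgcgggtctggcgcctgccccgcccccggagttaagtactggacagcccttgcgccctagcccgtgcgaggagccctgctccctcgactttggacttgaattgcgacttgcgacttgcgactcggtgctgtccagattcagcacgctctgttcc
Kcnj8: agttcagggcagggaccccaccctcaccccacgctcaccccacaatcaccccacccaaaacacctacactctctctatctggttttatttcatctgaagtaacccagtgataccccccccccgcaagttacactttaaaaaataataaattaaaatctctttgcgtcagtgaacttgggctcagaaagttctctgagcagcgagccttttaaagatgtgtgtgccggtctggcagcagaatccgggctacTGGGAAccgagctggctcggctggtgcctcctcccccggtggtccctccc
Acta2: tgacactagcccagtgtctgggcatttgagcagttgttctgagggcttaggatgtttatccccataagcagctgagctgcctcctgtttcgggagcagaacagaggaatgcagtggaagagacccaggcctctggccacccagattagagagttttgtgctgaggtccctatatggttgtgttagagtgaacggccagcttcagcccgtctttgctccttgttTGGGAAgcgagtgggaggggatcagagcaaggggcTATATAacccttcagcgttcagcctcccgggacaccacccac
3 motifs were searched on both strands. The CArG box, which serum response factor binds in many smooth muscle genes, was searched as its strict consensus with no mismatch. It was in 0 of the 6 promoters and in 1.63% of the 32851 promoters of the table. Near forms with a mismatch, such as ccctatatgg in the *Acta2* promoter, were not counted. The letters TGGGAA, the core that RBPJ binds in Notch signalling, were in 3 of the 6 (*Abcc9*, *Kcnj8* and *Acta2*) and in 25.6% of all promoters. The letters TATATA, a form of the TATA box, were in 2 of the 6 (*Rgs5* and *Acta2*) and in 5.67% of all promoters. These are matches of letters in a 300-base window and not sites of binding, and no match says only that the letters are absent from that window.

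Library totals ran from 26037324 to 44779020 expected counts, so that 3 counts, taken as the floor of detection for counting error only, made 0.0608 to 0.119 CPM (counts over a library's size after TMM normalization, the level used throughout). *Wt1*, the deleted gene, was at 145, 109.5 and 149 CPM in ControlΔEC and at 14.0, 18.4 and 21.3 CPM in Wt1KOΔEC and was thus lower in every Wt1KOΔEC library. ControlΔEC replicate 2 stood apart: its Spearman correlation with the other libraries over genes was 0.929 to 0.937, and it had the highest sums of macrophage and erythroid genes. The ribosomal RNA *Rn18s* took 13.2 to 15.3% of counts in ControlΔEC and 21.1 to 26.5% in Wt1KOΔEC, and mitochondrially encoded genes 5.21 to 6.61% and 1.68 to 4.57%. Across the 16296 genes tested (at least 10 counts in at least 2 libraries) the median log2 fold change of Wt1KOΔEC over ControlΔEC was -0.03, with 8474 genes lower and 7822 higher.

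The mural genes did not move alike. Of the pericyte genes, *Rgs5*, *Higd1b* and *Cspg4* were lower in every Wt1KOΔEC library than in any ControlΔEC library. The same held for the amine oxidase gene *Aoc3*. The pericyte genes *Abcc9* and *Kcnj8*, which encode channel subunits, kept 75.0% and 78.6% of their mean ControlΔEC level, although *Kcnj8* did not overlap either. The contractile genes overlapped between genotypes and passed no test. On the same libraries the paper lists *Rgs5* as a lower arterial marker and *Kcnj8* as an arterial gene without significant change. It counts *Aoc3* among the lower genes that regulate EC functions. Of the 10 genes, 9 had enough counts to be tested with edgeR (*Myh11* did not), and 8 of these 9 had a lower and 1 (*Tagln*) a higher fitted level in Wt1KOΔEC, with a median log2 fold change of -0.41 beside -0.03 for all genes tested. Only *Aoc3* was a DEG (a differentially expressed gene by edgeR's quasi-likelihood test, with adjusted p under 0.05 and log2 fold change beyond 0.58 either way), beside 0.0736% of all genes tested in either direction and 0.0245% in the lower one. In 5 of the 9 (*Rgs5*, *Higd1b*, *Cspg4*, *Aoc3* and *Abcc9*) the unadjusted p was under 0.05 with a lower level, beside 7.12% of all genes tested, or 13.1% in either direction. In 5 of the 9 (*Rgs5*, *Higd1b*, *Cspg4*, *Aoc3* and *Kcnj8*) no Wt1KOΔEC library reached the lowest ControlΔEC library, beside 8.95% of all genes tested, and in 0 of the 9 was the reverse true, beside 10.4%. With DESeq2, the tool that the study's methods name, all 10 genes had an adjusted p (0.730 for *Myh11*), 4 of the 10 were DEGs and all 4 (*Rgs5*, *Higd1b*, *Cspg4* and *Aoc3*) were lower, beside 4.83% of the genes with an adjusted p in either direction and 2.63% in the lower one. *Higd1b*, which counts in these tallies, could pass the filter on low counts only through ControlΔEC, the genotype in which it was high. Summed over the 10 genes, levels were 446 to 589 CPM in ControlΔEC and 295 to 371 CPM in Wt1KOΔEC, so that the sums did not overlap. The largest parts of the ControlΔEC sums were *Abcc9* and *Rgs5*, so the sums mostly follow these genes. Mean levels in ControlΔEC and Wt1KOΔEC were 263 and 197 CPM for *Abcc9*, which overlapped between genotypes, and 119 and 20.9 CPM for *Rgs5*.

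**Figure D1:**
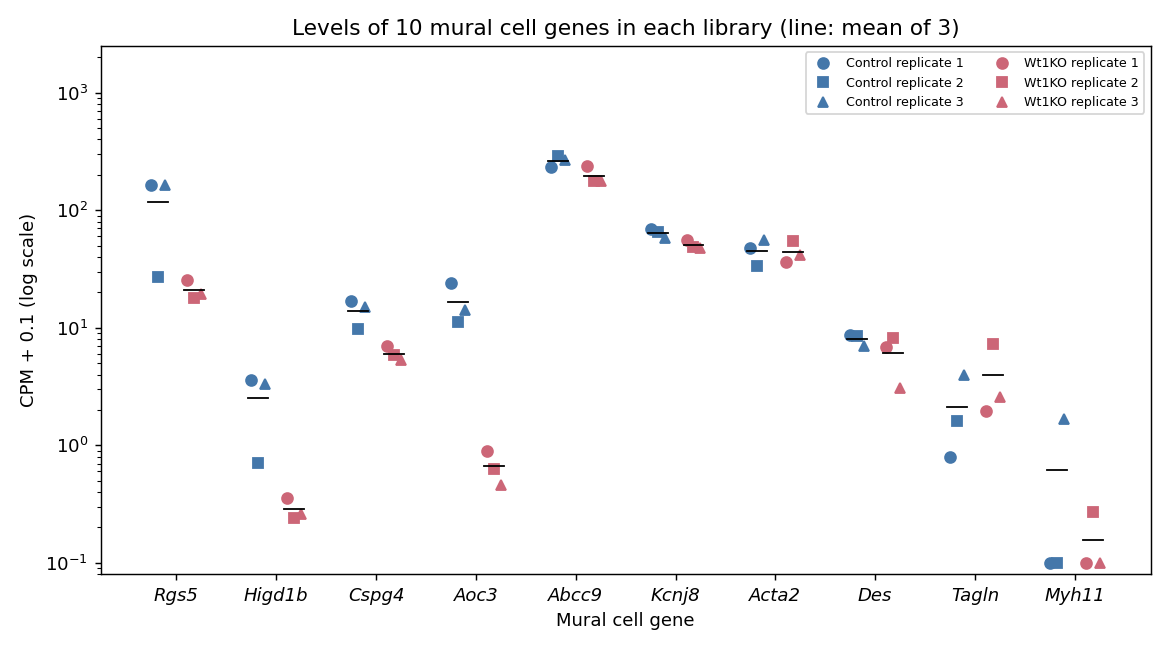
Levels of the 10 mural cell genes in each library, in CPM + 0.1 on a log axis, with ControlΔEC in blue, Wt1KOΔEC in red, a symbol for each replicate number and a line at the mean of 3 libraries. *Aoc3* was at 11.2 to 23.9 CPM in ControlΔEC and at most 0.793 CPM in Wt1KOΔEC, *Rgs5* and *Higd1b* of ControlΔEC replicate 2 (blue square) lay near the Wt1KOΔEC libraries, and *Acta2* overlapped between genotypes.

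*Rgs5* (ENSMUSG00000026678.11, chr1:169483036-169524887 on the plus strand, GRCm39), a regulator of G-protein signalling that damps receptor signals in pericytes, was at 165.3, 26.8 and 163.5 CPM in ControlΔEC replicates 1, 2 and 3 (7401, 1324 and 4717 counts). In Wt1KOΔEC it was at 25.4, 17.9 and 19.4 CPM (994, 636 and 491 counts). The Wt1KOΔEC libraries lay close together, while ControlΔEC replicate 2 was far below the other two and just above the highest Wt1KOΔEC library. The means were 118.6 ± 79.4 and 20.9 ± 4.00 CPM (SD, n = 3 each), a log2 fold change of -2.50 (SE 0.57). The adjusted p was 0.163 with edgeR and 0.0210 with DESeq2. Without ControlΔEC replicate 2 the log2 fold change was -2.97 and the adjusted p 0.00188 with edgeR, so the call of *Rgs5* turned on that library and on the tool. It turned on the filter as well, since with all 6 libraries in edgeR the adjusted p was 2.26e-04 without a filter on low counts and 0.0416 with at least 10 counts in every library.

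*Higd1b* (ENSMUSG00000020928.15, chr11:102726404-102735661, plus strand), a small mitochondrial protein of the hypoxia-inducible domain family that marks pericytes in several organs, had 157, 30 and 93 counts in ControlΔEC (3.51, 0.608 and 3.22 CPM). It had 10, 5 and 4 counts in Wt1KOΔEC (0.256, 0.140 and 0.158 CPM), just above the floor. The order of the libraries was like that of *Rgs5*: ControlΔEC replicate 2 was lowest of its genotype and the Wt1KOΔEC libraries lay together below it. The means differed 13.2-fold, with a log2 fold change of -3.70 (SE 1.13) and an adjusted p of 0.243 with edgeR and 0.00660 with DESeq2. A part of *Higd1b* overlaps *Eftud2* on the opposite strand, and 19.2% of the 51-base windows of its transcripts also lie in *Eftud2*, whose reads an unstranded library cannot separate from it there. The paralog *Higd1a* was at 24.3, 24.4 and 25.0 CPM in ControlΔEC and at 31.0, 34.4 and 39.0 CPM in Wt1KOΔEC, without overlap and with an adjusted p of 0.328 with edgeR. Per 100 counts of *Rgs5* there were 2.12, 2.27 and 1.97 counts of *Higd1b* in ControlΔEC and 1.01, 0.786 and 0.815 in Wt1KOΔEC. ControlΔEC replicate 2 thus had little of both genes but in the proportion of its genotype, and the ratios of the genotypes did not overlap.

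*Cspg4* (ENSMUSG00000032911.7, chr9:56772317-56807187, plus strand), which encodes the proteoglycan NG2 on the surface of mural cells, was at 16.8, 9.71 and 15.0 CPM in ControlΔEC and at 6.91, 5.73 and 5.18 CPM in Wt1KOΔEC. All 3 Wt1KOΔEC libraries were lower than all 3 ControlΔEC libraries, of which replicate 2 was again the lowest. The means were 13.8 ± 3.69 and 5.94 ± 0.882 CPM (SD, n = 3), with a log2 fold change of -1.22 (SE 0.34) and an adjusted p of 0.220 with edgeR and 0.0149 with DESeq2.

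*Aoc3* (ENSMUSG00000019326.15, chr11:101221370-101232962, plus strand) encodes the amine oxidase VAP-1, which is abundant in vascular smooth muscle and is also found on ECs, where it takes part in leukocyte adhesion. It was at 23.9, 11.2 and 14.0 CPM in ControlΔEC (1068, 553 and 405 counts) and at 0.793, 0.533 and 0.356 CPM in Wt1KOΔEC (31, 19 and 9 counts). None of the other 8 genes tested had groups so far apart: the lowest ControlΔEC library was over 10 times the highest Wt1KOΔEC library. *Aoc3* fell 29.2-fold between the means, with a log2 fold change of -4.84 (SE 0.51) and an adjusted p of 0.0204 with edgeR and 1.28e-19 with DESeq2. Without ControlΔEC replicate 1 the adjusted p with edgeR was 0.0958, and without Wt1KOΔEC replicate 1, 2 or 3 it was 0.0804, 0.129 or 0.132, while the log2 fold change ranged over -5.18 to -4.47 when single libraries were dropped. *Aoc3* did not set ControlΔEC replicate 2 apart as *Rgs5* did: per 100 counts of the EC gene *Pecam1* it was at 1.43, 0.810 and 0.758 in ControlΔEC and at 0.0471, 0.0326 and 0.0254 in Wt1KOΔEC. *Aoc2*, its neighbour and paralog, shares 2.32% of the 51-base windows and was at 0.447, 1.32 and 2.60 CPM in ControlΔEC and at 2.64, 1.74 and 1.15 CPM in Wt1KOΔEC, with overlap between genotypes. *Aoc1* had no count in any library.

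*Abcc9* and *Kcnj8* encode SUR2 and Kir6.1, the regulatory and the pore subunit of the ATP-sensitive potassium channel of vascular cells, and lie next to each other on chromosome 6, 15758 bases apart. *Abcc9* (ENSMUSG00000030249.16, chr6:142533588-142648571, minus strand) was the most abundant of the 10 genes, at 232.6, 289 and 267 CPM in ControlΔEC and at 237.8, 177.7 and 176 CPM in Wt1KOΔEC. The genotypes overlapped, since Wt1KOΔEC replicate 1 was above ControlΔEC replicate 1. The means were 263 ± 28.5 and 197 ± 35.1 CPM (SD, n = 3), with a log2 fold change of -0.41 (SE 0.18) and an adjusted p of 0.362 with edgeR. *Kcnj8* (ENSMUSG00000030247.10, chr6:142510563-142517830, minus strand) was at 69.3, 65.4 and 58.1 CPM in ControlΔEC and at 55.5, 48.8 and 47.2 CPM in Wt1KOΔEC. Its genotypes did not overlap, but the difference was small: the means were 64.3 ± 5.71 and 50.5 ± 4.44 CPM (SD, n = 3), with a log2 fold change of -0.35 (SE 0.16) and an adjusted p of 0.417 with edgeR. The subunits kept their proportion, with 3.35, 4.42 and 4.60 counts of *Abcc9* per count of *Kcnj8* in ControlΔEC and 4.28, 3.64 and 3.74 in Wt1KOΔEC. Of their paralogs, which form the channel of pancreatic β-cells, *Kcnj11* had no count in any library and *Abcc8* had counts in ControlΔEC replicate 2 alone (0.608 CPM).

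*Acta2* (ENSMUSG00000035783.10, chr19:34217737-34232990, minus strand), the smooth muscle α-actin, was at 47.2, 33.2 and 55.5 CPM in ControlΔEC and at 36.0, 55.2 and 41.3 CPM in Wt1KOΔEC. The libraries of the genotypes were interleaved. The means were 45.3 ± 11.2 and 44.2 ± 9.89 CPM (SD, n = 3), with a log2 fold change of -0.04 (SE 0.25) and an adjusted p of 0.978 with edgeR, and the sign of the fold change turned with limma-voom and without any of 3 libraries. Opposite to *Acta2* lies *Stambpl1*, which shares 7.25% of its 51-base windows. Of other actins, *Actg1* shares 0.173% of the windows. Summed with the muscle actins *Actg2*, *Acta1* and *Actc1*, the level was 141 CPM in ControlΔEC and 183 CPM in Wt1KOΔEC, most of it from the cardiac actin *Actc1*. The cytoplasmic actins *Actb* (log2 fold change 0.06) and *Actg1* (-0.03) and the filament gene *Vim* (0.19), the most abundant paralogs of the contractile genes, overlapped between genotypes.

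*Des* (ENSMUSG00000026208.10, chr1:75320511-75345223, plus strand), the intermediate filament desmin of muscle and mural cells, was at 8.56, 8.35 and 6.86 CPM in ControlΔEC and at 6.81, 8.11 and 2.97 CPM in Wt1KOΔEC. Wt1KOΔEC replicate 3 was the low library and the other two lay near ControlΔEC, with a log2 fold change of -0.41 (SE 0.45) and an adjusted p of 0.792. *Tagln* (ENSMUSG00000032085.6, chr9:45840909-45847404, minus strand), the actin-binding transgelin of smooth muscle, was at 0.693, 1.52 and 3.88 CPM in ControlΔEC and at 1.87, 7.21 and 2.45 CPM in Wt1KOΔEC. It varied as much within a genotype as between them, with a log2 fold change of 0.92 (SE 0.85) and an adjusted p of 0.742 with edgeR, and without Wt1KOΔEC replicate 2 the fold change was 0.09. Over *Tagln* runs the antisense model *Gm48529*, which shares 51.4% of its windows, so its counts are uncertain. *Myh11* (ENSMUSG00000018830.11, chr16:14012399-14109236, minus strand), the smooth muscle myosin heavy chain and the most specific marker of mature smooth muscle of the 10, had 0, 0 and 45 counts in ControlΔEC and 0, 6 and 0 counts in Wt1KOΔEC, and was not tested with edgeR.

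Per kb of exonic length, the level in ControlΔEC was highest for *Abcc9* (22.7 ± 2.46 CPM per kb), followed by *Rgs5* (19.3 ± 12.9), *Kcnj8* (17.1 ± 1.52) and *Acta2* (14.0 ± 3.48), each the mean and SD of 3 libraries. These 4 neighbours in the order overlapped between libraries, and after them came a step down to *Aoc3* (3.35 ± 1.36), which no library of a lower gene reached. *Des* (1.54 ± 0.180), *Cspg4* (1.16 ± 0.309), *Tagln* (0.994 ± 0.810) and *Higd1b* (0.758 ± 0.495) again overlapped with their neighbours, and *Myh11* (0.0684 ± 0.118) was last. In Wt1KOΔEC, *Rgs5* went from place 2 to place 4 of the 10 with 3.40 ± 0.650 CPM per kb, and *Aoc3* from place 5 to place 8 with 0.115 ± 0.0450.

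The genes that were lower also varied together. Over the 6 libraries Pearson's r of log2(CPM + 1) was 0.99 for *Rgs5* with *Higd1b*, 0.97 for *Cspg4* with *Higd1b*, 0.96 for *Cspg4* with *Aoc3* and 0.95 for *Rgs5* with *Cspg4*. For *Aoc3* it was lower with *Higd1b* (0.89) and *Rgs5* (0.84). It was 0.79 for *Abcc9* with *Kcnj8*, and *Kcnj8* also went with *Aoc3* (0.90) and *Cspg4* (0.84). With *Acta2* it was 0.44 for *Rgs5*, 0.25 for *Cspg4*, 0.10 for *Aoc3*, -0.23 for *Kcnj8* and -0.35 for *Abcc9*, and with *Tagln* it was between -0.73 (*Kcnj8*) and -0.35 (*Rgs5*) for these genes. These values describe 6 libraries that hold the difference between genotypes and share one preparation of cells each, and no test was made of them. Among 8469 genes with a mean of at least 10 CPM, the 3 most like *Rgs5* were *Tspan13* (r = 0.99), *Efr3b* (r = 0.99) and *Cav1* (r = 0.99), for *Abcc9* they were *Rabep1*, *Yipf1* and *Fyn*, for *Kcnj8* *Zfp91*, *Usp4* and *Tubb2a*, and for *Acta2* *Kdm3a*, *Lmbr1l* and *Wapl*. *Cav1*, the caveolin of endothelial caveolae, was at 2998 CPM in ControlΔEC and 1783 CPM in Wt1KOΔEC.

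**Figure D2:**
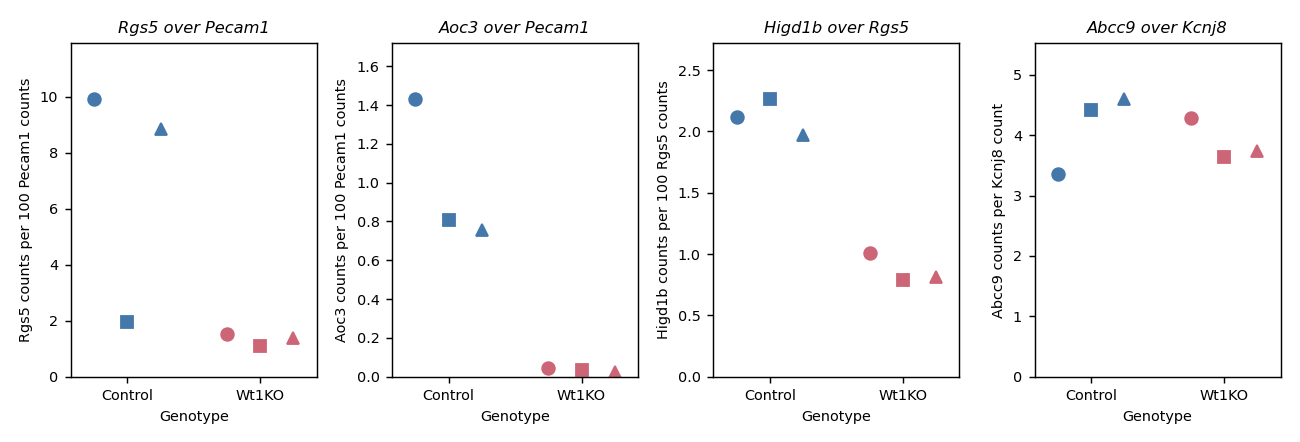
Ratios of counts within each library for 4 pairs of genes, with ControlΔEC in blue, Wt1KOΔEC in red, 1 point per library and axes from 0. *Rgs5* per 100 counts of *Pecam1* was 1.94 in ControlΔEC replicate 2 (square) beside 8.83 and 9.92 in the other two, *Higd1b* per 100 counts of *Rgs5* was 1.97 to 2.27 in ControlΔEC and 0.786 to 1.01 in Wt1KOΔEC, and *Abcc9* per count of *Kcnj8* overlapped.

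Of 20 other genes of mural cells, 19 were tested, with 13 lower and 6 higher in Wt1KOΔEC and a median log2 fold change of -0.48. None was a DEG with edgeR, where 5 had an unadjusted p under 0.05 (4 lower, 1 higher), beside 13.1% of all genes tested in either direction and 7.12% in the lower one. With DESeq2 3 (*Pdgfrb*, *Foxs1* and *Vtn*) were DEGs, all lower, beside 4.83% in either direction and 2.63% in the lower one. *Pdgfrb*, the receptor through which mural cells are recruited, was at 64.0, 39.6 and 66.8 CPM in ControlΔEC and at 15.1, 24.6 and 32.0 CPM in Wt1KOΔEC. Its groups did not overlap, and the log2 fold change was -1.25 (SE 0.31), with an adjusted p of 0.196 with edgeR and 0.00805 with DESeq2. *Foxs1*, a forkhead transcription factor of pericytes, was at 6.79, 3.77 and 4.75 CPM in ControlΔEC and at 0.461, 0.814 and 0.396 CPM in Wt1KOΔEC. The log2 fold change was -3.19 (SE 0.70), with an adjusted p of 0.150 with edgeR and 1.84e-05 with DESeq2. *Vtn*, the matrix protein vitronectin that brain pericytes make, had 122, 80 and 120 counts in ControlΔEC and 0 in all 3 Wt1KOΔEC libraries, at least 30.4-fold lower against a floor of 3 counts per library. It could pass the filter on low counts only through ControlΔEC, and its adjusted p was 0.110 with edgeR and 1.08e-06 with DESeq2.

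The subunits of soluble guanylate cyclase, the nitric oxide receptor of mural cells, went opposite ways without passing edgeR's threshold. *Gucy1a1* was at 35.4, 14.2 and 20.4 CPM in ControlΔEC and at 12.2, 8.17 and 13.4 CPM in Wt1KOΔEC (log2 fold change -1.05, SE 0.37, adjusted p = 0.284 with edgeR). *Gucy1b1* was at 15.7, 10.8 and 22.1 CPM in ControlΔEC and at 32.1, 23.7 and 31.9 CPM in Wt1KOΔEC (log2 fold change 0.85, SE 0.30, adjusted p = 0.284 with edgeR). Neither gene had overlap between genotypes, and the same held for *Art3*, lower with a log2 fold change of -0.83, and for the aminopeptidase gene *Anpep*, higher with 1.19. *Lmod1*, a smooth muscle leiomodin, had 54, 9 and 6 counts in ControlΔEC and 0 in all 3 Wt1KOΔEC libraries and was not tested. The most abundant of the 20 were *Mcam*, an adhesion molecule that ECs share, at 640 and 556 CPM, and *Smtn*, a smoothelin, at 264 and 232 CPM, with log2 fold changes of -0.20 and -0.18 and overlap between genotypes. The contractile genes *Myl9* and *Cnn1* had log2 fold changes of 0.15 (SE 0.33) and 0.88 (SE 0.86), and *Mylk* and *Tpm2* of -0.48 (SE 0.26) and -0.60 (SE 0.59), all with overlap.

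**Figure D3:**
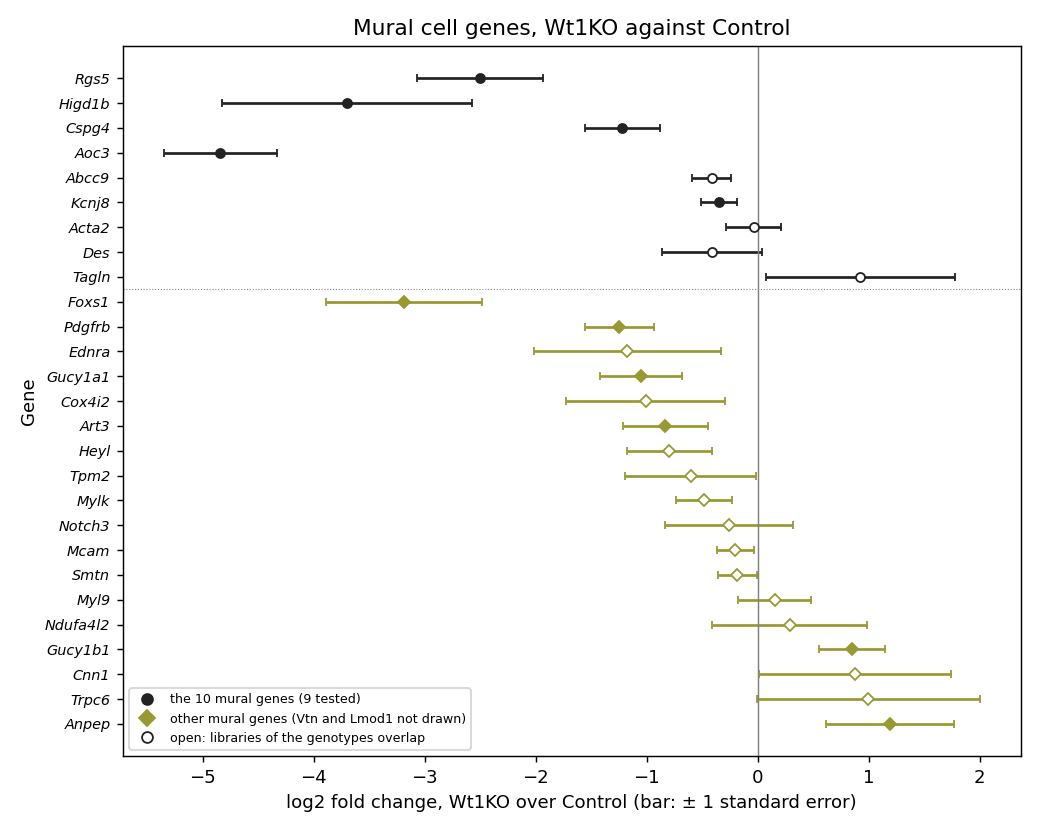
Log2 fold changes of Wt1KOΔEC over ControlΔEC for the 9 mural genes tested (black) and 18 of the 20 others (olive), with bars of 1 SE and open symbols where libraries of the genotypes overlap. *Vtn*, with a log2 fold change of -9.72 and no count in Wt1KOΔEC, and *Lmod1*, which was not tested, are not drawn. Of the genes drawn *Aoc3* at -4.84 lies farthest to the left, and *Foxs1* at -3.19 is the lowest of the others. The contractile genes *Acta2*, *Tagln*, *Myl9*, *Cnn1*, *Mylk* and *Tpm2* are all open.

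Of 10 regulators of the contractile programme, 7 were tested, with 5 higher and 2 lower and a median log2 fold change of 0.05, and none had an unadjusted p under 0.05 with edgeR or was a DEG with DESeq2. The most abundant were the SRF cofactor gene *Mrtfb* (81.8 and 61.2 CPM), *Klf4* (31.3 and 32.3 CPM) and *Mrtfa* (19.1 and 23.4 CPM), and *Srf* itself was at 4.60 and 4.64 CPM. *Tbx18*, a gene of epicardium and pericytes, was at 0.246 to 0.709 CPM in ControlΔEC and 0.791 to 1.35 CPM in Wt1KOΔEC, without overlap and with an adjusted p of 0.782 with edgeR. Of 16 ligands and receptors of mural cell recruitment, all tested, 9 were lower and 7 higher, with a median log2 fold change of -0.17. 0 were DEGs with edgeR and 1 (*Pdgfrb*, lower) with DESeq2. An unadjusted p under 0.05 was found for 3 of the 16, lower in *Pdgfrb* and *Tgfb1* and higher in *S1pr1*, beside 13.1% of all genes tested. The most abundant were *Eng*, a TGFβ co-receptor (1427 and 1565 CPM), *S1pr1* and the angiopoietin receptor gene *Tek* (392 and 340 CPM). *Pdgfb*, the ligand that ECs release, was at 71.3, 55.8 and 51.6 CPM in ControlΔEC and at 49.7, 57.8 and 35.9 CPM in Wt1KOΔEC. These overlapped, with a log2 fold change of -0.32 (SE 0.22). *S1pr1*, the sphingosine phosphate receptor by which ECs attach to mural cells, was at 334 ± 27.5 and 475 ± 25.3 CPM (SD, n = 3). Its libraries did not overlap, at 306 to 361 CPM in ControlΔEC and 446 to 491 CPM in Wt1KOΔEC. The log2 fold change was 0.51 (SE 0.14), with an adjusted p of 0.220 with edgeR. With DESeq2 the adjusted p of *S1pr1* was 0.00512, but its log2 fold change of 0.50 was below the limit set for a DEG. *Edn1*, the vasoconstrictor endothelin that ECs release, was at 122, 61.9 and 134 CPM in ControlΔEC and at 147, 152 and 164 CPM in Wt1KOΔEC, without overlap and with an adjusted p of 0.425 with edgeR.

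Other cell types were read through lists of marker genes beside these results. The 10 EC genes summed to 5867 to 7241 CPM in ControlΔEC and 5726 to 6625 CPM in Wt1KOΔEC, with a median log2 fold change of -0.07 and 0 DEGs with edgeR or DESeq2. Of the fibroblast genes, markers of a cell type from the same epicardial lineage as mural cells, 8 of 10 were higher in Wt1KOΔEC. Their sums were 724 to 1065 CPM in ControlΔEC and 1456 to 1642 CPM in Wt1KOΔEC. By mean level the largest part of these sums was *Col3a1*, at 319 and 624 CPM. The 2 lower genes were *Dpt* (log2 fold change -1.60, without overlap between genotypes) and *Postn* (-0.16, with overlap). Of the fibroblast genes 5 had an unadjusted p under 0.05 with edgeR, all higher, beside 13.1% of all genes tested in either direction. *Col1a1* was a DEG with edgeR (log2 fold change 1.34, adjusted p = 0.0441), beside 0.0736% of all genes tested. The paper, on the same libraries, counts *Col1a1*, *Col3a1* and *Dcn* as venous markers with raised expression. *Col1a1*, *Col1a2*, *Col3a1* and *Dcn* were DEGs with DESeq2, beside 4.83% of the genes with an adjusted p in either direction. These shares hold for the other lists as well. The 10 epicardial genes summed to 18.6 to 24.1 CPM in ControlΔEC and 26.0 to 68.2 CPM in Wt1KOΔEC, and the 10 cardiomyocyte genes to 197 to 277 and 160 to 352 CPM, with *Nkx2-5* at 0 in all 3 ControlΔEC libraries. With DESeq2 the epicardial genes *Upk3b* and *Msln* were higher DEGs, and no cardiomyocyte gene was a DEG. The 6 glial genes summed to at most 5.92 CPM in a library, with *Foxd3* at 0 in all 6. Of the 8 macrophage genes 8 were lower in Wt1KOΔEC, with a median log2 fold change of -0.78. They summed to 236 to 731 CPM in ControlΔEC and 177 to 247 CPM in Wt1KOΔEC, and the 8 erythroid genes to 6571 to 14360 and 5112 to 8503 CPM. Of the macrophage and erythroid genes *Csf1r*, *Adgre1* and *Alas2* were lower and *Hbb-y* was higher as DEGs with DESeq2, and 0 were DEGs with edgeR. An unadjusted p under 0.05 with edgeR was found for 4 macrophage genes, all lower, and 2 epicardial genes, both higher. The same was found for 2 lower and 1 higher erythroid genes and 1 higher EC gene, and for no cardiomyocyte or glial gene. The part of these cell types in the levels of the mural genes was not tested.

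ControlΔEC replicate 2, which had the sums of 731 CPM for macrophage genes and 14360 CPM for erythroid genes, had low levels of some mural genes only. Chosen after their values were seen, *Ednra*, the endothelin receptor of mural cells, was at 0.689 CPM in this library beside 12.8 and 8.01 in the other two, *Trpc6* at 0.101 beside 3.19 and 4.54, and *Tpm2* at 3.36 beside 14.9 and 12.7. *Abcc9* at 289 CPM was instead highest in it, and *Kcnj8*, *Des* and *Aoc3* were within or next to the range of the other replicates. Without this library the log2 fold changes were -2.97 for *Rgs5*, -4.15 for *Higd1b*, -1.42 for *Cspg4*, -5.05 for *Aoc3*, -0.34 for *Abcc9* and -0.33 for *Kcnj8*, and *Rgs5* and *Aoc3* were the 2 DEGs among the mural genes with edgeR. What set this library apart was not tested.

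**Figure D4:**
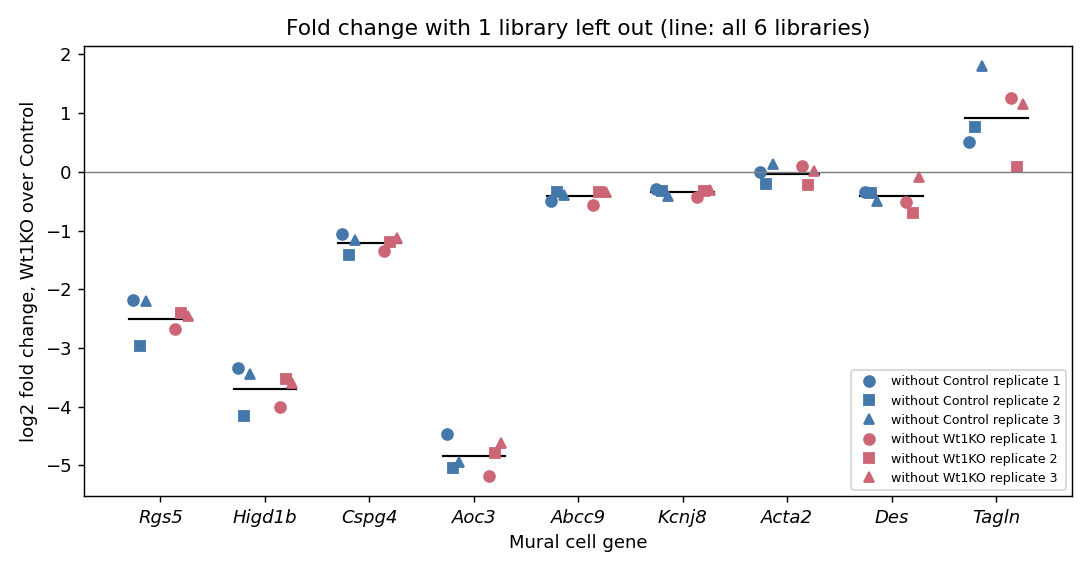
Log2 fold changes of the 9 mural genes tested with 1 library left out at a time (blue for a ControlΔEC library, red for a Wt1KOΔEC library, symbol for the replicate number) and a line for all 6. *Rgs5* moved most without ControlΔEC replicate 2 (to -2.97), the signs of *Rgs5*, *Higd1b*, *Cspg4*, *Aoc3*, *Abcc9*, *Kcnj8* and *Des* held in all 6 fits, and *Acta2* lay on both sides of 0.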

How the data were processed

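RNA from 3 ControlΔEC and 3 Wt1KOΔEC libraries of sorted ECs was sequenced by the SMART-seq2 protocol, which keeps no strand and no molecular identifiers. The authors mapped reads with STAR 2.7.8a and deposited RSEM 1.3.0 expected counts per gene, rounded to whole numbers and not normalized (versions as in the submitters' processing notes). Their methods name GRCm39, and the submitters' notes name GRCm38. Positions and lengths here are those of GENCODE on GRCm39, and promoters those of RefSeq on GRCm38.p6.

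The fits used edgeR 4.0.16 in R 4.3.3, with TMM normalization, the quasi-likelihood F test and Benjamini-Hochberg adjustment over 16296 genes, those reaching 10 counts in 2 or more libraries. A DEG needed an adjusted p under 0.05 and a log2 fold change beyond 0.58 either way. The SE is the fold change over the square root of F. DESeq2 1.42.0, limma-voom (limma 3.58.1), other normalizations and filters, no fold change limit, the replicate number as a block and each library left out in turn were alternatives, and leaving out *Rn18s* with the mitochondrially encoded genes was an alternative chosen after seeing the data. The fits were tested on simulated data. A two-sided exact permutation test of 3 libraries against 3 cannot give a p below 0.1, which *Rgs5*, *Higd1b*, *Cspg4*, *Aoc3* and *Kcnj8* reached. Batches are not given in the sources used here, and 1 that coincides with genotype cannot be told apart from it. The library names in the count table begin with AT for every ControlΔEC library and with AU for every Wt1KOΔEC library. What these names stand for is not given. Named are the 10 genes. Of the lists of other mural genes, contractile regulators, recruitment genes and paralogs, the genes called, those without overlap and the 3 most abundant are named. Paralogs, overlapping genes and partners of the 10 are named only in part. Some other listed genes, such as *Myl9*, *Cnn1*, *Mylk* and *Tpm2*, were added. Of the cell type lists the DEGs, *Dpt* and *Postn* were named after their values were seen. The genes and lists were chosen with earlier results of these data known.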

Additional observations from a re-analysis of the deposited data

How the results depend on the processing

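Among all genes tested the 12 DEGs became 767 with DESeq2, 296 without a filter on low counts, 113 with at least 10 counts in every library, and 2 to 37 with 1 library left out (2 without Wt1KOΔEC replicate 3, 37 without ControlΔEC replicate 3). Among the 10 mural genes the count of 1 became 4 with DESeq2, 0 with limma-voom, 2 without a filter (*Rgs5* and *Aoc3*), and 0 to 2 with 1 library left out (0 without ControlΔEC replicate 1 or any 1 Wt1KOΔEC library, 2 without ControlΔEC replicate 2). With at least 10 counts in every library it was again 1, but the gene was *Rgs5*. The 5 with an unadjusted p under 0.05 became 3 with at least 10 counts in every library, where *Aoc3* and *Higd1b* were no longer tested, and were 4 to 5 with 1 library left out. Among the 20 other mural genes the count of 0 became 3 with DESeq2, 2 without a filter and 1 with at least 10 counts in every library, and stayed at 0 with any 1 library left out. Of 151 alternative values of single genes, 136 kept direction and call, 6 gained and 5 lost the call, and 4 turned direction. Most of the 136 were of genes not called in the main fit. All 5 lost calls were of *Aoc3*, the only DEG of the 10, which kept its call in 11 of 16 alternatives. The 4 that turned were all of *Acta2*, which ranged over -0.23 to 0.14 with 1 library left out (0.0045 with limma-voom, 0.14 without ControlΔEC replicate 3, 0.09 without Wt1KOΔEC replicate 1 and 0.0094 without Wt1KOΔEC replicate 3). The causes of these changes were not tested.

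Any pairing of the libraries by replicate number was weak. The correlations of deviations from the genotype means were 0.051, 0.064 and 0.045 for replicates 1, 2 and 3, and -0.044 to -0.009 between different numbers. Each library thus correlated best with its own number. The paper's breeding gave both genotypes in the same litter, but whether libraries of 1 number shared a litter is not given. With the replicate number as a block 5 DEGs were left among all genes, *Aoc3* stayed a DEG (adjusted p = 0.0337 with edgeR), and *Rgs5* had a log2 fold change of -2.16 (adjusted p = 0.197 with edgeR). Depth limits *Myh11*, *Higd1b* and *Vtn*, which lay at or near 3 counts in some libraries.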
